A study of Saccharomyces cerevisiae with 6 samples.

Results

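The YRF1 genes encode near-identical DNA helicases from the Y' elements, the repeats that lie just inside the telomeric repeats of many budding yeast chromosome ends. The 8 genes YRF1-1 to YRF1-8 were taken by symbol from a table of 7127 features, and all 8 were found. They were compared between young and aged cells of Saccharomyces cerevisiae in 6 poly(A)-selected libraries, 3 from each group. All libraries came from strain CGY4.51, with the genotype given as MAT@, grown in synthetic complete medium with glucose. The paper describes related CGY strains as prototrophs built from crosses of standard laboratory strains. Young cells came from exponential culture. Aged cells had spent 24 h in ministat aging devices, which hold mother cells while the flow of medium carries away their daughters. Age and culture system thus cannot be told apart here, and the share of daughters in the aged RNA is not given in the sources used here.

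Y' elements are present at many but not all chromosome ends, singly or in tandem, and their number differs between strains. Genes near telomeres can be silenced by the Sir proteins, a complex that binds and deacetylates histones and spreads inward from the end. YRF1 genes are known for high expression in survivors of telomerase loss, cells that maintain their ends by copying Y' and telomeric repeats through recombination. No such mutant was part of this comparison.

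YRF1 RNA was near the lower limit of what these libraries could measure, and its summed level was higher in aged cells. The 8 genes together held between 32.49 and 60.75 estimated counts in a young library and between 104.58 and 123.41 in an aged one. Scaled to library size and composition, the sum was 1.58-fold higher in aged cells. YRF1-2 and YRF1-4 held most of these counts. They were the only 2 of the 8 with enough counts to be tested, and 1 of them, YRF1-2, was called higher, in a comparison that called 63.5% of all tested features. That call did not survive leaving out any of 5 of the 6 libraries in turn.

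The 8 genes lie on 7 chromosomes, and 7 of them end within 500 bases of a chromosome end in the R64 assembly of RefSeq, the build named in the submitters' processing notes. YRF1-1 (YDR545W) lies at chrIV:1526321-1531711 on the plus strand, 222 bases from the end. YRF1-2 (YER190W) is at chrV:571480-576525, plus strand, 349 bases from the end, and YRF1-3 (YGR296W) at chrVII:1084864-1090591, plus strand, also 349 bases from the end. YRF1-4 (YLR466W, chrXII:1067087-1071235) and YRF1-5 (YLR467W, chrXII:1072508-1077898) sit in tandem on the plus strand of a single arm, so that YRF1-4 is 6942 bases from the end and YRF1-5 is 279. YRF1-6 (YNL339C, chrXIV:371-6098) and YRF1-7 (YPL283C, chrXVI:280-6007) are on the minus strand, 370 and 279 bases from the end. YRF1-8 (YOR396W) is at chrXV:1085473-1090863 on the plus strand, 428 bases from the end. YRF1-3, YRF1-6 and YRF1-7 are annotated with 2 exons and the others with 1. The genes span between 4149 and 5728 bases.

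The sequences limit how far the 8 genes can be told apart by single reads of 150 bases, so stretches that separate them are shown here. Over the 28 pairs of genes, identity ranged from 99.0% to 100%. YRF1-1, YRF1-5 and YRF1-8 were identical over their whole length, as were YRF1-3 and YRF1-7, which makes 4 identical pairs. YRF1-2 differed from YRF1-3 by 8 bases, all between its bases 127 and 243, and the 4803 bases after the last difference were the same in both. These are chrV:571600-571729 and chrVII:1085666-1085795, both plus strand, with the differing bases in capitals.
YRF1-2: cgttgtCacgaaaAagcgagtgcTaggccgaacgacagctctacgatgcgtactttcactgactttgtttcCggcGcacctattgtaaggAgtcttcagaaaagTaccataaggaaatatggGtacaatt
YRF1-3: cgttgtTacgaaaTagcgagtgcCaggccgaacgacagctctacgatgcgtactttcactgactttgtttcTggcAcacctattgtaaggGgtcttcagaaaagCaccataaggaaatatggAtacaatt
YRF1-4 begins further into the element than the other genes. Its start (chrXII:1067087-1067206) is set beside a stretch of YRF1-1 (chrIV:1527564-1527682), both plus strand. That stretch of YRF1-1 is the one placed against it by the alignment with the fewest edits. Capitals mark bases that differ in this alignment, and they fall mostly near the start of YRF1-4. Both stretches hold a shared run of bases there, at different offsets, which the alignment does not set side by side. Capitals in that part therefore do not count the bases by which the genes differ.
YRF1-4: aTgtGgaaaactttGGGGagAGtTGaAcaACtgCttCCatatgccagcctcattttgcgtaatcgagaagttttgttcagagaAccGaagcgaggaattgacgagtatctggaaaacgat
YRF1-1: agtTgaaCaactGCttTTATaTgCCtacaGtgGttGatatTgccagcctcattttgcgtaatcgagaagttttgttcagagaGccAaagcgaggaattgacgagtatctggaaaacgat
YRF1-6 differed from YRF1-3 by 2 bases, shown in capitals at chrXIV:1095-1154 (minus strand, written in the direction of the gene) and chrVII:1089808-1089867 (plus strand).
YRF1-6: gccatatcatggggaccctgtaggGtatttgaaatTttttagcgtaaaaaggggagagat
YRF1-3: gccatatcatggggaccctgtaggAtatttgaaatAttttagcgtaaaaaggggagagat
By contrast, the next stretch of 150 bases (chrV:575795-575944, plus strand, from YRF1-2) was held by all 8 genes and occurred at 19 places in the assembly, counting both strands. No base in it separates any of the 8.
YRF1-2: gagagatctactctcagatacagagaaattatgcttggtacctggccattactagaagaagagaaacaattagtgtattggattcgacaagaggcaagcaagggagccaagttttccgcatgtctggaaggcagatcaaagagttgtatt

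Every stretch of 150 bases along each gene was looked up in the assembly. Only single windows that lie wholly inside a gene were used. Reads that run past the edge of a gene, and the second read of a pair, were not considered. Such reads may be placed where no window inside the gene is found once. YRF1-2 held 235 such windows found nowhere else, of 4897 in all (4.80%), and YRF1-4 held 253 of 4000 (6.33%). The other 6 genes held 0. In YRF1-2 the single-copy windows covered bases 1 to 374 and 234 to 392, the part with the 8 differences printed above. In YRF1-4 they covered bases 1 to 276, 363 to 563 and 939 to 1161. Between 41.9% and 51.0% of the windows of a gene occurred at more than 10 places, and 19 places was the most for any window. The start of YRF1-4 shares 415 bases of the same strand with YLR464W, another open reading frame of a Y' element. The start of YRF1-2 shares 44 bases with YER189W on the same strand. YRF1-2 also shares 483 bases with YER190C-B on the opposite strand, at a place in the gene that was not looked at.

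**Figure D1:**
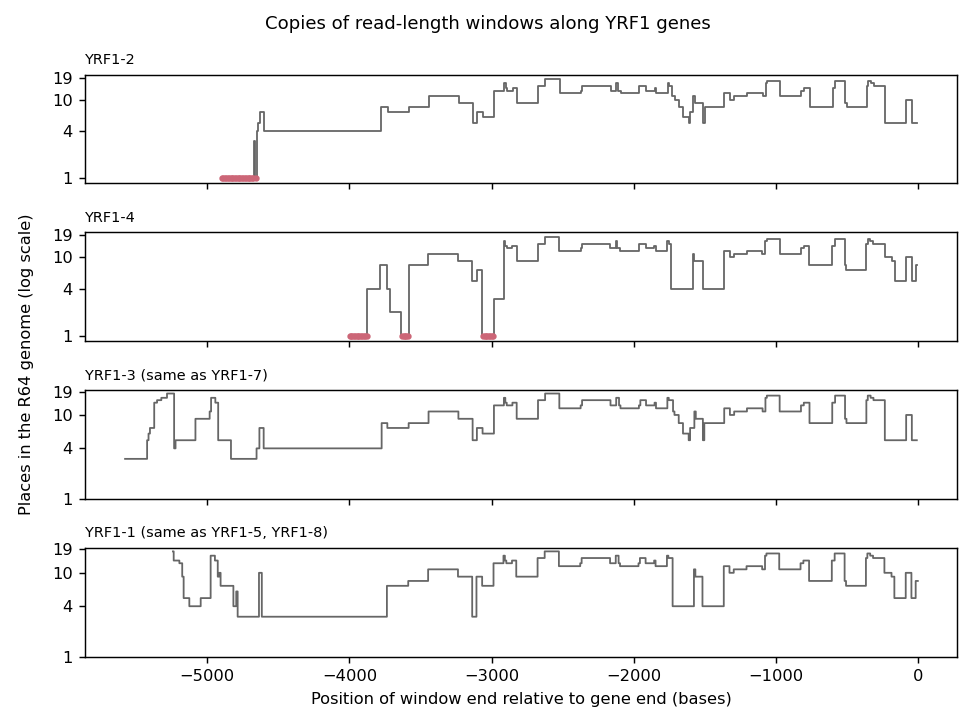
Number of places in the R64 assembly (log scale) that hold each window of 150 bases, against the position of the window's end relative to the end of the gene in bases, for YRF1-2, YRF1-4, YRF1-3 and YRF1-1. Red points mark windows found once, which occur near the start of YRF1-2 (235 windows), within the first 1161 bases of YRF1-4 (253 windows) and in neither of the others.

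The deposited counts of these genes were mostly fractions. Of the 48 values for the 8 genes, 38 were not whole numbers, and all 48 lay within 0.005 of a multiple of 1/12. Shares of 1/2, 1/3 and 1/4 of a read add up to such multiples. Fractions were not particular to these genes, since 54.3% to 59.5% of all features in a library had a value that was not whole. Of all values that were not whole, 98% lay at a multiple of 1/12. How reads that match several places, or that overlap several features, were divided is not given in the sources used here. The source of the fractions was not tested. A count on a YRF1 row is a count of reads assigned to that copy. Where its reads match several copies, it does not show which chromosome end was transcribed.

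YRF1-2 had 22.5, 8 and 12.5 estimated counts in young libraries 1 to 3 and 39.83, 45.17 and 44.08 in aged libraries 1 to 3. Levels in CPM (counts scaled to library size and to TMM, a factor for library composition) were 0.833, 0.298 and 0.458 in young cells and 1.13, 1.03 and 0.855 in aged cells. The groups did not overlap, and the mean went from 0.530 ± 0.275 to 1.00 ± 0.139 CPM (SD, n = 3 each). On the log2 scale the fold change came to 0.94 (SE 0.35, 95% confidence interval 0.15 to 1.72, adjusted p = 0.0387, edgeR quasi-likelihood test). Of the 6755 tested features, 63.5% were called in either direction and 32.7% as higher. A count of 1 in 2 YRF1 genes does not stand apart from that background. The call was lost when any library other than young 1 was left out. Without young 2 the log2 fold change was 0.66 (adjusted p = 0.102, edgeR), without young 3 it was 0.83 (0.116), without aged 1 it was 0.85 (0.115), without aged 2 it was 0.92 (0.0868) and without aged 3 it was 1.05 (0.0528). Without young 1 it was 1.41 (adjusted p = 0.00633, edgeR).

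YRF1-4 had 26.92, 20 and 9 counts in young libraries 1 to 3 and 33.75, 43.83 and 44.75 in aged libraries 1 to 3. The levels were 0.997, 0.745 and 0.330 CPM in young cells and 0.957, 0.996 and 0.868 CPM in aged cells. Young 1 was above all 3 aged libraries, so the groups overlapped. The group means were 0.690 ± 0.337 and 0.941 ± 0.0654 CPM (SD, n = 3 each), with a log2 fold change of 0.45 (SE 0.35, 95% confidence interval -0.32 to 1.22, adjusted p = 0.277, edgeR). The difference was not larger than the spread between replicates, and the interval includes a change as large as that of YRF1-2.

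**Figure D2:**
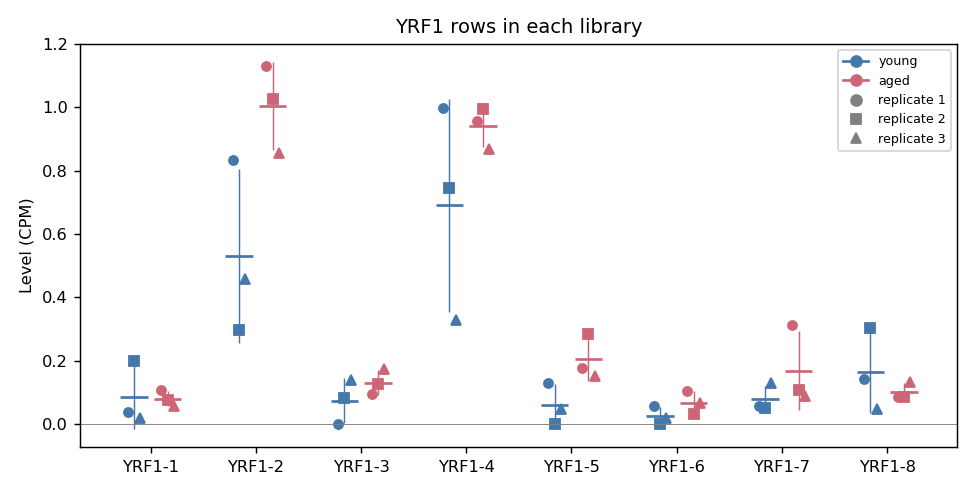
Level of each YRF1 gene in CPM in the 3 young (blue) and 3 aged (red) libraries, with circles, squares and triangles for replicates 1 to 3, a horizontal bar for the mean and a vertical line for 1 SD on each side. YRF1-2 and YRF1-4 have means between 0.530 and 1.00 CPM, and the other 6 genes have means of 0.204 CPM or less.

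The other 6 genes did not pass the filter on low counts. Over their 36 values the counts ranged from 0 to 12.5, with 15 at or under 3 counts and 3 at 0. For YRF1-2 and YRF1-4 the range was 8 to 45.17. A level of 3 counts corresponds to between 0.110 and 0.112 CPM in young and between 0.0582 and 0.0851 CPM in aged libraries, so most of these levels were close to it. Compared per length, the mean over all 6 libraries was 0.152 CPM per kb for YRF1-2 and 0.197 for YRF1-4, against 0.00799 to 0.0247 CPM per kb for the other 6. YRF1-2 and YRF1-4 each passed the filter, 0.298 CPM before the composition factor, in 2 young and 3 aged libraries.

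Of these 6, YRF1-5, the outer gene of the tandem pair, had 3.5, 0 and 1.33 counts in young libraries 1 to 3 and 6.25, 12.5 and 7.83 in aged libraries 1 to 3. All aged libraries were above all young ones, and the mean went from 0.0594 ± 0.0655 to 0.204 ± 0.0701 CPM (SD, n = 3 each). When no filter was applied, YRF1-5 had an adjusted p of 0.102 (edgeR), so this did not pass the threshold. YRF1-7 had 1.5, 1.33 and 3.5 counts in young and 11, 4.67 and 4.58 in aged libraries, with means of 0.0777 and 0.169 CPM. Its scaled levels overlapped, since young 3 lay above aged 2 and aged 3.

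YRF1-3, identical to YRF1-7, had 0, 2.17 and 3.83 counts in young and 3.33, 5.5 and 8.92 in aged libraries, with means of 0.0737 and 0.131 CPM. YRF1-6 had 1.5, 0 and 0.5 counts in young and 3.67, 1.33 and 3.42 in aged libraries, with means of 0.0246 and 0.0669 CPM. The scaled levels of both genes overlapped between the groups. YRF1-1 had 1, 5.33 and 0.5 counts in young and 3.75, 3.33 and 3 in aged libraries, with means of 0.0846 and 0.0801 CPM. YRF1-8 had 3.83, 8.17 and 1.33 counts in young and 3, 3.75 and 6.83 in aged libraries, with means of 0.165 and 0.101 CPM.

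The mean was higher in aged cells for 6 of the 8 genes and lower for YRF1-1 and YRF1-8. In both of these, young 2 was the highest library, and without it the log2 ratio of the means was 1.54 for YRF1-1 and 0.09 for YRF1-8. YRF1-1, YRF1-5 and YRF1-8 have the same sequence, yet their means moved in different directions. With no filter, the adjusted p of the genes other than YRF1-2 lay between 0.102 and 0.964 (edgeR). Every aged library was above every young library for 2 of the 8 genes, YRF1-2 and YRF1-5, beside 35.1% of all features with a count.

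Because reads can fall on any copy, the sum over the 8 genes depends less on how they were divided, although reads shared with other Y' features can still fall outside it. The sum was 2.25, 1.68 and 1.19 CPM in young libraries 1 to 3 and 2.97, 2.73 and 2.39 CPM in aged libraries 1 to 3. All aged libraries were above all young ones, though young 1 and aged 3 lay close together. The mean went from 1.71 ± 0.530 to 2.70 ± 0.287 CPM (SD, n = 3 each), 1.58-fold or 0.66 on the log2 scale. The labels give each replicate number a batch of its own, with a young and an aged library in each. Within batches 1, 2 and 3 the log2 ratio was 0.40, 0.70 and 1.01. YRF1-2 and YRF1-4 alone summed to 1.22 ± 0.543 CPM in young libraries and 1.94 ± 0.194 CPM in aged ones, a log2 ratio of 0.67 with overlapping groups. The other 6 genes summed to 0.420, 0.633 and 0.402 CPM in young and 0.879, 0.706 and 0.671 CPM in aged libraries, which did not overlap, with a log2 ratio of 0.63. Within batches 1, 2 and 3 the log2 ratio of YRF1-2 and YRF1-4 was 0.19, 0.96 and 1.13. That of the other 6 was 1.07, 0.16 and 0.74, so the order of these ratios changed between batches. No test was run on the sums or on their difference.

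**Figure D3:**
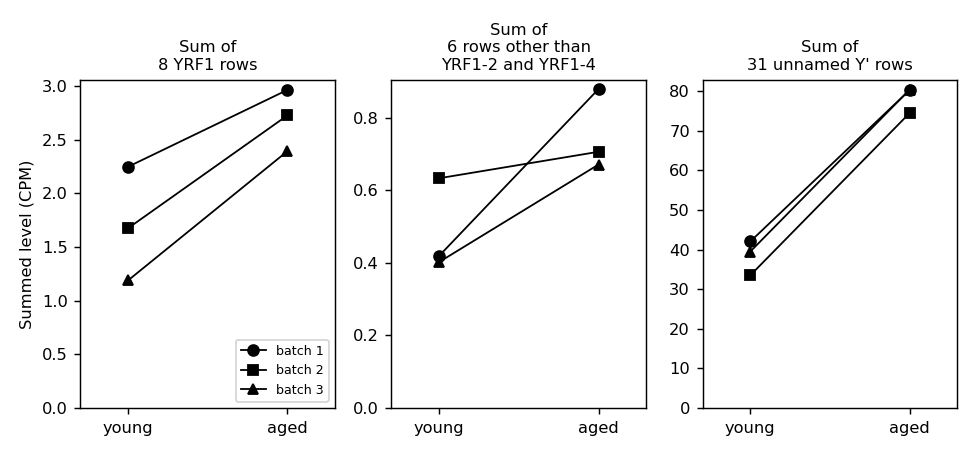
Summed level in CPM of the 8 YRF1 genes (left), of the 6 genes other than YRF1-2 and YRF1-4 (middle) and of the 31 unnamed Y' features (right) in young and aged libraries, with a line joining the libraries of a batch. Every line rises, with a log2 ratio of 0.40 to 1.01 for the YRF1 sum and 0.93 to 1.15 for the unnamed features.

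Most counts on Y' elements fell on features without a gene name. A list of 31 such open reading frames, largely fragments or relatives of the helicase gene, held 42.0, 33.5 and 39.5 CPM in young and 80.3, 74.5 and 80.4 CPM in aged libraries. The mean rose 2.04-fold, from 38.3 ± 4.39 to 78.4 ± 3.38 CPM (SD, n = 3 each), with log2 ratios of 0.93, 1.15 and 1.03 in the 3 batches. The 8 YRF1 genes took 4.26% ± 1.16 of all Y' counts in young and 3.33% ± 0.379 in aged libraries. The mean was higher in aged cells for 28 of the 31 and lower for 3, and in 20 every aged library was above every young library, beside 35.1% of all features with a count. Without the filter, 14 of the 30 features that could be tested were called higher and 0 lower (edgeR), beside 31.8% of all features called higher. Their median log2 fold change was 0.90, against 0.03 over all features in that fit. With the filter 21 were tested, and the same number, 14, was called higher. Of these 21, 8 passed the filter through the aged libraries alone, which favours a higher level there, and 3 of them were called. The other 13 had a young library at the filter, with 11 called.

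YFL064C had the largest estimate of these and went from 0.197 ± 0.0657 to 0.963 ± 0.0112 CPM (2.18 as log2 fold change, SE 0.34, adjusted p = 0.000301, edgeR). YBL111C followed with 0.258 ± 0.0625 CPM in young libraries and 0.901 ± 0.196 CPM in aged libraries (log2 fold change 1.82, SE 0.36, adjusted p = 0.00136, edgeR). Neither had a young library at the filter, so both were tested only because their aged libraries passed it. The 3 most abundant features, named after their values were seen, passed it in all 6 libraries and had smaller estimates. YHL050C rose from 6.90 ± 1.46 to 16.7 ± 1.06 CPM, YBL113C from 8.43 ± 0.420 to 15.8 ± 1.58 CPM and YEL077C from 7.79 ± 0.833 to 14.1 ± 0.391 CPM. YRF1-2, at 0.94, lay near the middle of the 21 in its log2 fold change and YRF1-4, at 0.45, below all of them, whose lowest value was 0.59. The difference between the YRF1 genes and the unnamed features was not tested.

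**Figure D4:**
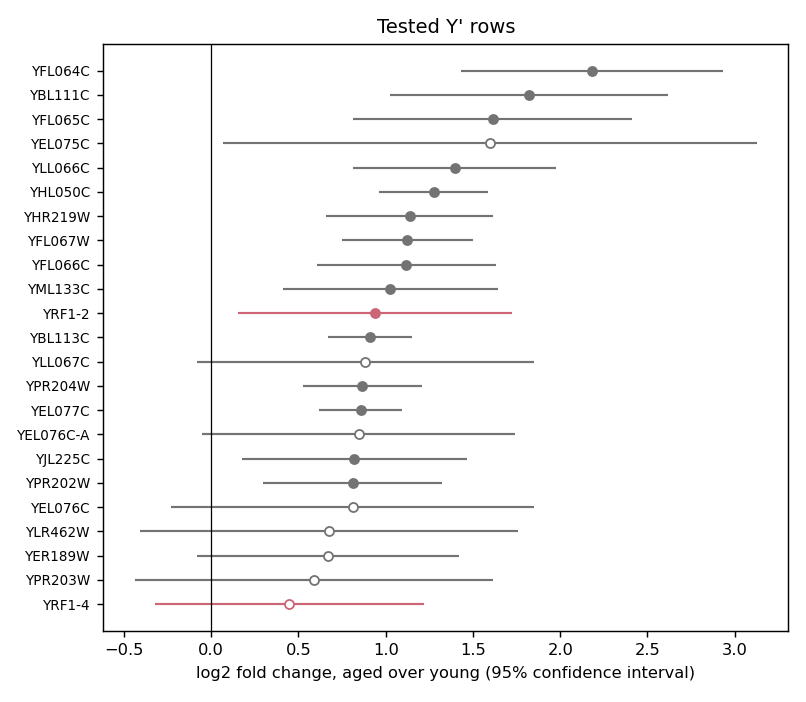
Log2 fold change of aged over young cells with its 95% confidence interval for the 23 tested Y' features, YRF1 genes in red, with filled points for an adjusted p under 0.05 (edgeR). Estimates run from 0.45 for YRF1-4 to 2.18 for YFL064C, and since 8 of the features passed the filter through the aged libraries alone, their common direction is in part set by the filter.

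The level of a Y' feature went with how much of its sequence occurs once. Of the 31 unnamed features, 26 were in the annotation, which with the YRF1 genes gave 34. The 11 with no single-copy window had mean counts over the 6 libraries of 1.25 to 23.6 (median 3.96), and the 23 with such windows had 2.28 to 460.3 (median 29.7). Across the 34 features, Spearman's rho between the number of single-copy windows and the mean count was 0.77 and Pearson's r was 0.94. Pearson's r leans on YBL113C, YEL077C and YHL050C, with 1171, 1727 and 1700 such windows and mean counts of 460.3, 412.2 and 458.1. No other feature had over 331 windows (YFL067W) or a mean count over 174.5 (YPR204W). The correlation without them was not computed. These features share sequence, libraries and, in part, reads, and they differ in length, so this is a description. Per 100 single-copy windows the mean count was 12.2 for YRF1-2 and 11.7 for YRF1-4, within a range of 1.61 (YIL177C) to 116.4 (YPR204W) over the 23 features with such windows.

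**Figure D5:**
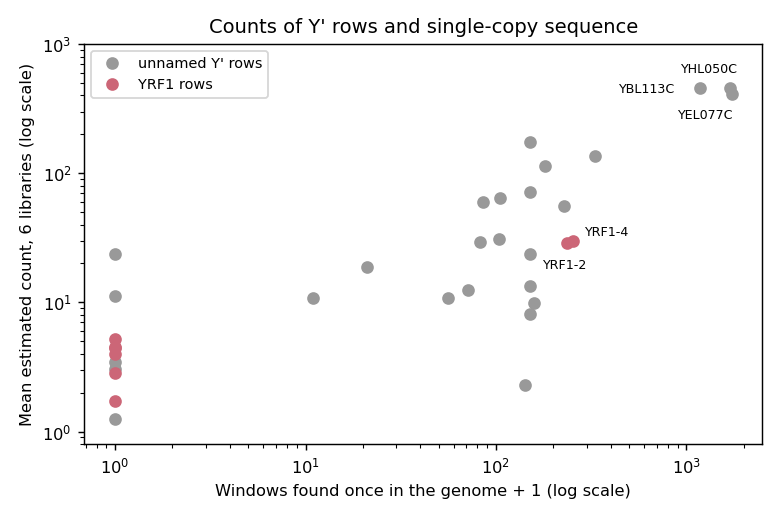
Mean estimated count over the 6 libraries (log scale) against the number of windows of 150 bases found once in the R64 assembly plus 1 (log scale) for 34 Y' features. The 6 YRF1 genes with 0 such windows have mean counts under 6, YRF1-2 and YRF1-4 have 28.7 and 29.7, and the 3 labelled unnamed features have 412.2 to 460.3.

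The opposite strand was looked at for the 8 loci through the features named after them. YLR466C-B, on the strand opposite to YRF1-4 by its systematic name and singled out after its values were seen, had 0.741, 0.726 and 0.879 CPM in young and 2.94, 2.54 and 2.61 CPM in aged libraries. Its log2 fold change was 1.77 (SE 0.21, adjusted p = 5.45e-05, edgeR). YLR466C-B was not among the annotated genes that overlap YRF1-4. The kit marks strand, but the strand setting of the counting is not given in the sources used here. If YRF1-4 and YLR466C-B do share bases, their reads may therefore not be separated. The part of YLR466C-B in the values of YRF1-4 was not tested. No other opposite-strand feature of the 8 loci passed the filter, and none had more than 3.33 counts in any library.

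The 24 genes of telomere maintenance that were measured, chosen by role, moved in both directions. At an adjusted p under 0.05 (edgeR), 7 were higher, 10 were lower and 7 did not pass, with a median log2 fold change of -0.15. Over all tested features 63.5% were called, 32.7% as higher and 30.8% as lower, and the share of telomere genes called was near that background. Telomerase, which extends chromosome ends, had 2 of its 3 measured subunits lower and 0 higher, beside 30.8% of all features called lower. EST3, a subunit of the holoenzyme, fell from 33.4 ± 3.90 to 22.9 ± 1.77 CPM (log2 fold change -0.54, SE 0.10, adjusted p = 0.000808, edgeR). EST2, the reverse transcriptase, fell from 31.2 ± 3.79 to 24.7 ± 1.94 CPM (-0.34, SE 0.10, adjusted p = 0.0139, edgeR). The call of EST2 was lost without young 3 (-0.26, adjusted p = 0.0692, edgeR) and without aged 1 (-0.29, adjusted p = 0.0662). The RNA template of telomerase, TLC1, was not matched by symbol.

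Of the 12 genes of capping and length control, 3 were higher and 5 lower, a share called near the 63.5% of all features. CDC13, which binds the single-stranded overhang, rose from 6.29 ± 1.17 to 11.5 ± 1.38 CPM (log2 fold change 0.88, SE 0.15, adjusted p = 0.000601, edgeR). YKU80, a subunit of the Ku complex that binds DNA ends, was at 6.89 ± 1.26 and 8.76 ± 0.487 CPM (0.35, SE 0.14, adjusted p = 0.0498, edgeR). That call was lost when young 2, young 3, aged 1, aged 2 or aged 3 was left out, with log2 fold changes between 0.25 and 0.39 and adjusted p between 0.0691 and 0.147 (edgeR). RAD50 and XRS2, both of the complex that processes and tethers ends, fell from 97.8 ± 5.06 to 60.3 ± 3.64 CPM (-0.70, SE 0.07, adjusted p = 3.05e-05, edgeR) and from 40.8 ± 0.542 to 28.9 ± 1.08 CPM (-0.50, SE 0.07, adjusted p = 0.000133).

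Of the 9 recombination and helicase genes, through which Y' elements can be copied between ends, 4 were higher and 3 lower, beside 32.7% and 30.8% of all features. RAD55 rose from 11.7 ± 0.451 to 16.0 ± 0.782 CPM (log2 fold change 0.45, SE 0.09, adjusted p = 0.00140, edgeR), while its partner RAD57 fell from 74.6 ± 5.44 to 58.5 ± 2.63 CPM (-0.35, SE 0.08, adjusted p = 0.00230, edgeR). PIF1, a helicase that limits telomerase at ends, was at 65.2 ± 2.52 and 55.3 ± 3.23 CPM (-0.24, SE 0.07, adjusted p = 0.0135, edgeR). The call of PIF1 was lost without young 3, aged 2 or aged 3, with adjusted p of 0.0549, 0.0557 and 0.0570 (edgeR).

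Of the 8 silencing genes, 1 was higher and 3 were lower, beside 32.7% and 30.8% of all features. SIR2, the histone deacetylase of the Sir complex, was at 15.2 ± 1.54 and 18.7 ± 1.06 CPM (log2 fold change 0.29, SE 0.10, adjusted p = 0.0240, edgeR), and this call was lost without young 1, aged 1 or aged 3 (adjusted p = 0.0780, 0.0863 and 0.0866). SIR4, its partner in the complex, fell from 92.6 ± 2.94 to 62.0 ± 2.09 CPM (-0.58, SE 0.07, adjusted p = 4.57e-05, edgeR). SAS2, a histone acetyltransferase that counters the spread of silencing, fell from 145.8 ± 10.0 to 87.3 ± 7.10 CPM (-0.74, SE 0.08, adjusted p = 4.75e-05, edgeR). The COS genes, a repeated family from subtelomeric regions, had 8 of 11 members higher and 0 lower, with a median log2 fold change of 0.42, beside 32.7% of all features called higher.

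The directions of these genes depended on the scaling. With total counts only, the median log2 fold change over all tested features moved from 0.02 to 0.54, and 89.2% of calls were higher in aged cells instead of 51.5%. The YRF1 sum then had a log2 ratio of 1.16 and the unnamed Y' features a median of 1.43, both above that shift. Under the same scaling EST2, XRS2, RAD57 and PIF1 changed sign, and EST3, RAD50 and SIR4 kept theirs but were no longer called (adjusted p = 0.812, 0.105 and 0.574, edgeR). In that fit 0 of the telomerase, 0 of the capping and 0 of the recombination genes were lower, and of the silencing genes 4 were higher and 1 was lower. Of all 6755 tested features, 4639 were called higher and 562 lower in the same fit.

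The tested features whose profile over the 6 libraries was most like that of the YRF1 sum were found by Euclidean distance between centred log2 CPM values, among 6481 candidates outside the Y' lists. SNZ2, a subtelomeric gene of vitamin metabolism at chrXIV:13267-14163, was nearest (distance 0.275), with 5.07 ± 0.976 CPM in young libraries and 8.11 ± 0.650 CPM in aged libraries. ALG3, a mannosyltransferase of glycoprotein synthesis, followed at 0.320, PUS2, a mitochondrial pseudouridine synthase, at 0.326, YER187W at 0.330 and YOR073W-A at 0.336. YER187W lies at chrV:566230-566655, on the arm that carries YRF1-2 and 10219 bases from its end. The sum of the unnamed Y' features was at 0.805, farther from the YRF1 sum than these 5.

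The libraries held between 29230292 and 41650202 estimated counts. Beside those totals each YRF1 value rests on few reads, and its counting error adds to the spread between cultures. In bulk RNA, fewer cells of a type and less RNA per cell cannot be told apart. Of 9 genes used as daughter cell markers, 6 were higher in aged cells and 0 lower, beside 32.7% of all features called higher, and they summed to between 1090 and 1180 CPM in young and between 1317 and 1454 CPM in aged libraries, with no marker at 0. Alpha cell markers summed to between 4386 and 5375 CPM in young and between 3389 and 3718 CPM in aged libraries, and 1 of the 4 was higher and 2 were lower. Markers of a cells summed to between 19.2 and 26.4 CPM in young and between 23.2 and 26.6 CPM in aged libraries, and 3 of the 5 were higher and 0 lower. Beside the alpha and a cell lists, 32.7% of all tested features were called higher and 30.8% lower. The part of these markers in the YRF1 values was not tested. The p-values set the group difference against the spread between these 3 cultures a group, estimated with information shared across all tested features.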

How the data were processed

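RNA of 3 young and 3 aged cultures was sequenced as paired reads of 150 bases with a directional kit. The authors deposited estimated counts per feature, not normalized. Tools in the submitters' processing notes are bcl2fastq, cutadapt 2.6, STAR 2.7.6a, featureCounts and Subread 1.6.2, with build R64. Their settings, including the treatment of reads that match several places, are not given in the sources used here. The authors compared groups with DESeq2 and shrunken fold changes, and the supplementary values were not used here. 0 columns were left unassigned.

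Counts were rounded, filtered with filterByExpr (minimum count 10), scaled by TMM and tested with edgeR's quasi-likelihood test (edgeR 4.0.16, R 4.3.3), two-sided, group as the only term, Benjamini-Hochberg adjustment over 6755 features and a threshold of 0.05. CPM are given as mean ± SD. A positive log2 fold change means a higher level in aged cells. The SE is the size of the log2 fold change divided by the square root of the F statistic of the test. Intervals are for the log2 fold change and were built from this SE with the t distribution. Both are approximations that rest on the spread between libraries. Replicate numbers are the labelled batches. Deviations from the group means correlated by 0.12, 0.34 and 0.13 within batches and by -0.30 to 0.20 across them. Young 1 with aged 3, at 0.20, was above the values within batches 1 and 3, so these correlations do not settle the pairing. It was taken from the labels alone.

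Sequences and gene positions are from RefSeq's R64 assembly. Genes were aligned with edlib 1.3.9.post1. Identity is relative to the shorter gene. Windows of 150 bases were searched on both strands.

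All YRF1 genes were named. Of the unnamed Y' features and of the telomere and silencing lists, up to 2 called genes in each direction with the largest change were named, and of the features most like the YRF1 sum the 5 nearest with a mean of at least 1 CPM (prior count 2). A gene that this rule named is not reported here. The members and lists were chosen with earlier results of these data known. The scripts were tested on simulated data. Alternatives were DESeq2 size factors, total counts only, no filter, unrounded counts, the Wald test of DESeq2 1.42.0, a replicate block, another set of summed features and leaving out each library.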

Additional observations from a re-analysis of the deposited data

How the results depend on the processing

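Over 13 alternatives, between 3569 and 5201 features were called, and over 10 alternatives between 12 and 20 telomere maintenance genes. With total counts only, 2 YRF1 genes were called higher (YRF1-4 at a log2 fold change of 0.96, adjusted p = 0.0225, edgeR), beside 4639 of all 6755 tested features. The YRF1 sum then had a log2 ratio of 1.16. Under that scaling 4 genes changed sign: EST2 (0.18), XRS2 (0.012), RAD57 (0.17) and PIF1 (0.27). The sum extended to the unnamed Y' features had a ratio of 1.02, and the sum without YRF1-2 and YRF1-4, added after seeing the data, 0.63. With the replicate block, in which the labelled batch pairs the libraries, the log2 fold change of YRF1-2 was 0.98 (adjusted p = 0.0223, edgeR). That of YRF1-4 was 0.50 (0.216). In that fit 4539 features were called, and the block changed no call of a YRF1 gene. The YRF1 sum was not fitted with the block, and the mean of its log2 ratios within batches was 0.70. Leaving out each library, between 0 and 1 YRF1 genes were called, and the log2 ratio of the sum ranged from 0.46 without young 3 to 0.90 without young 1. With the Wald test of DESeq2, YRF1-2 had an adjusted p of 0.0412. For YRF1-2 the adjusted p ranged from 0.00295 to 0.116 over 12 alternatives (edgeR and DESeq2), and for YRF1-4 from 0.0225 to 0.765. The call of YKU80 was also lost with DESeq2 size factors, unrounded counts and the Wald test of DESeq2 (adjusted p = 0.0560, 0.0509 and 0.0507). The cause was not tested. Depth limits the 6 YRF1 genes below the filter: 15 of their 36 values are at or under 3 counts.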
